A study of Mus musculus with 6 samples.

Results

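The interferon regulatory factor (IRF) genes were followed in CD4+ T cells with and without the peptide miPEP31. Of 52856 rows in the deposited gene table, 8 were taken by their Ensembl gene IDs as the genes Irf1, Irf2, Irf3, Irf4, Irf5, Irf7, Irf8 and Irf9. One group was wild type (WT, 3 libraries) and the other miPEP31-/- (KO, 3 libraries), which lacks a small peptide read from the primary RNA of miR-31. All 6 libraries came from spleen CD4+ T cells of C57BL/6 mice aged 8 weeks, activated with antibodies against CD3 and CD28 for 48 hours, so no unstimulated cells stand beside them. The labels do not say how the allele was made, nor whether each library is a separate mouse, so the p-values measure the spread between these libraries, which may be technical.

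IRFs are transcription factors that share a DNA-binding domain with conserved tryptophans, which contacts GAAA repeats. IRF3 and IRF7 are phosphorylated by the kinases TBK1 and IKKepsilon downstream of nucleic acid sensors and switch on interferon genes. IRF9 is the DNA-binding subunit of the complex ISGF3, which also holds STAT2 and binds the interferon-stimulated response element (ISRE) after type I or type III interferon has engaged its receptor. IRF1 is induced by interferon gamma, whose response genes carry the gamma-activated site (GAS), and IRF2 is known as its antagonist. IRF4 is induced by the T cell receptor and works with BATF in T helper differentiation, IRF8 is its closest relative, and IRF5 is best known from macrophages and B cells.

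The starts of these genes were searched for both elements, since most members rose together. RefSeq (GRCm38.p6) gave 11 promoter windows for the 8 genes, each from 250 bases before to 50 after an annotated start. The ISRE was searched as GAAA, then a pair of any bases, then GAAA, and the GAS as TTCNNNGAA, on both strands, and the matches found in these windows did not overlap each other. Shown are the windows with a match and, for contrast, that of Irf7, the gene with the largest change. Capitals mark the matches.
Irf1, chr11:53769764-53770063, plus strand: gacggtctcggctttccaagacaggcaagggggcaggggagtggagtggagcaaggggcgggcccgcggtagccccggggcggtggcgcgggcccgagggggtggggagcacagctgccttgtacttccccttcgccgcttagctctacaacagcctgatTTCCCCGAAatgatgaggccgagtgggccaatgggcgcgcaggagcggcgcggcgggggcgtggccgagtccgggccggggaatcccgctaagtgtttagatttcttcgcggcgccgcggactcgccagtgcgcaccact
Irf2, chr8:46739495-46739794, plus strand: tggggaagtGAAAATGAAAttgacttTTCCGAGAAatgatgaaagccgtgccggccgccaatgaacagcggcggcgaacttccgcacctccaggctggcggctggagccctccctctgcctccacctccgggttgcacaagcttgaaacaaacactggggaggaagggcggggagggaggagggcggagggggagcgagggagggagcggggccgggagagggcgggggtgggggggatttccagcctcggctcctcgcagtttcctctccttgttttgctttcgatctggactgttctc
Irf8, chr8:120736108-120736407, plus strand: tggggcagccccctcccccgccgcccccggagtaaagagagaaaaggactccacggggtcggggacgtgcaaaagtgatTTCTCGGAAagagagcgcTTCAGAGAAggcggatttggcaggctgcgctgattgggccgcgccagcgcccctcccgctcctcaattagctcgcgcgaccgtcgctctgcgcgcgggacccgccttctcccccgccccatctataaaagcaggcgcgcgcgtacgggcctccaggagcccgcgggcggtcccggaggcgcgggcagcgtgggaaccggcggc
Irf7, chr7:141266375-141266674, minus strand: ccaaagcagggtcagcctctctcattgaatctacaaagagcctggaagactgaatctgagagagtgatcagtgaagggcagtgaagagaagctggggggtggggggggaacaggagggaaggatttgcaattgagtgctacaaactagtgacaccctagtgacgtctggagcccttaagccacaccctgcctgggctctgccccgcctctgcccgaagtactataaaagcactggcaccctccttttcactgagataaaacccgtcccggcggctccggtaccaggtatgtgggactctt
The GAS letters began 90 bases before the start in Irf1, and 171 and 153 bases before it in Irf8. Irf2 held an ISRE match 241 bases and a GAS match 224 bases before its start. An ISRE match was in 1 of the 11 windows and a GAS match in 3, against 3.44% and 8.3% of all 32851 RefSeq windows of the same length. The window of Irf7, those of Irf9 and those of Irf3, Irf4 and Irf5 held neither spelling, which says only that these letters are not in these windows.

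Library totals lay between 22865450 and 26295735 counts, and levels are given as CPM, the count of a gene scaled to a common library size with TMM factors. The labelled cell type was checked on its markers. Cd3e, a chain of the T cell receptor complex, had 175 to 179 CPM in WT and 142 to 159 CPM in KO, and Cd4 had 422 to 498 CPM in WT and 295 to 311 CPM in KO. Of 9 CD4 T cell markers, 6 were called lower in KO, where 22.2% of all tested rows were, and 1 higher, where 25.1% were, and their part in the results below was not tested. The macrophage markers Adgre1 and Fcgr1 and the dendritic cell markers Clec9a and Cd209a had no count in any library. Other markers of these cell types had counts, among them Mpeg1 and Batf3, which rose in KO, and Cd68, which was not called. Their values are given below.

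All 8 genes passed the filter on low counts. Positions below are on GRCm38. Since the strand used in counting is not stated, reads from a member and a gene overlapping it cannot be told apart. Irf1, Irf2, Irf3, Irf5, Irf7 and Irf9 were higher in the KO, Irf8 was lower, and Irf4 did not pass the test (edgeR quasi-likelihood test, Benjamini-Hochberg adjusted p under 0.05 over all 14387 rows tested). Thus 6 of 8 were called higher, where 25.1% of all tested rows were, and 1 of 8 lower, where 22.2% of all rows were. In either direction 47.3% of all rows were called. The groups lay apart in 7 of 8 genes, against 59.1% of all rows. All KO libraries were above WT in 30.6% of all rows and below it in 28.4%. The median log2 fold change was 0.80 over the 8 genes and 0.01 over all rows.

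**Figure D1:**
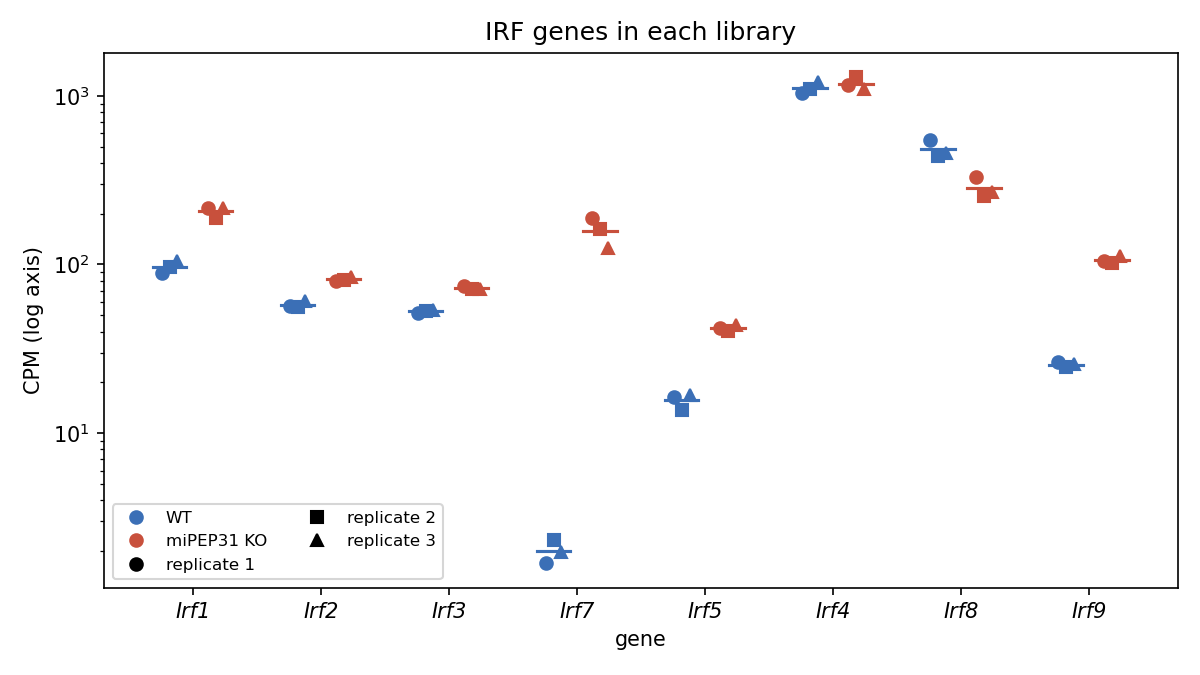
CPM (log axis) of the 8 IRF genes in each of the 3 WT and 3 KO libraries, with horizontal lines at the group means. The KO libraries of Irf7 lie between 126 and 188 CPM against 1.69 to 2.32 in WT, those of Irf8 lie below WT, and those of Irf4 overlap WT.

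Irf7, the amplifier of interferon production, changed the most. It had 1.69, 2.32 and 1.96 CPM in the WT libraries and 188, 162 and 126 CPM in KO replicates 1, 2 and 3. The groups did not overlap, and the lowest KO library stood 54.3 times above the highest WT library. The log2 fold change was 6.31 (SE 0.19, 95% interval 5.86 to 6.76, edgeR adjusted p = 1.24e-06), the 15th largest among the 14387 rows. The WT level rested on 39, 55 and 45 counts, the KO level on 4352, 4362 and 2932. The gene (ENSMUSG00000025498) lies on chromosome 7 from 141262706 to 141266481 on the minus strand. Its 3′ end shares 45 exon bases with Phrf1 on the other strand, which had 105 to 119 CPM and was not called (log2 change 0.05, edgeR adjusted p = 0.597).

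Irf3, the constitutive factor activated by the same kinases, rose far less. Its levels were 51.9, 52.8 and 53.5 CPM in WT and 74.6, 72.0 and 71.4 CPM in KO, with no overlap and a coefficient of variation of 1.56% in WT and 2.34% in KO. The log2 fold change was 0.46 (SE 0.06, edgeR adjusted p = 4.13e-04). Irf3 (ENSMUSG00000003184, chromosome 7, 44997648 to 45002848) shares 88 exon bases with Bcl2l12 on the opposite strand, which had 13.6 to 18.3 CPM and was not called (log2 change -0.15, edgeR adjusted p = 0.364).

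Irf5, which acts downstream of MyD88 in myeloid and B cells, rose 2.68-fold. It had 16.4, 13.7 and 16.9 CPM in WT and 42.0, 40.3 and 43.7 CPM in KO (log2 change 1.42 with SE 0.09, adjusted p from edgeR = 2.86e-05). Every KO library stood at least 2.38 times above the highest WT library. The gene (ENSMUSG00000029771, chromosome 6, 29526625 to 29541871) shares 411 exon bases with Tnpo3 on the opposite strand, more than any other member shares with a neighbour. Tnpo3, a nuclear import receptor gene, moved the other way, from 150 to 161 CPM in WT to 130 to 144 CPM in KO (log2 fold change -0.21, edgeR adjusted p = 0.0263).

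Irf9, the DNA-binding subunit of ISGF3, had the second largest change. It had 26.3, 24.5 and 25.7 CPM in WT and 105, 103 and 112 CPM in KO, a 4.18-fold rise (log2 change 2.06 with SE 0.07, adjusted p from edgeR = 1.57e-06). The groups were separated by a factor of 3.91 between the lowest KO and the highest WT library. Irf9 (ENSMUSG00000002325, chromosome 14, 55603571 to 55610030) begins within Rnf31 on the same strand, with 123 shared exon bases. Rnf31, a ubiquitin ligase gene of the LUBAC complex, was also called higher, by 0.34 on the log2 scale (SE 0.06, edgeR adjusted p = 0.00202). It had 63.5 to 67.7 CPM in WT and 81.4 to 85.1 CPM in KO.

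Irf1 and its antagonist Irf2 both rose. Irf1 had 89.6, 96.7 and 104 CPM in WT and 217, 190 and 217 CPM in KO (log2 change 1.10 with SE 0.08, adjusted p from edgeR = 4.84e-05). Irf2 had 56.7, 55.9 and 60.8 CPM in WT and 80.1, 81.2 and 84.7 CPM in KO (log2 change 0.50 with SE 0.06, adjusted p from edgeR = 4.27e-04). Neither gene's groups overlapped, and the intervals of the fold changes, 0.91 to 1.29 for Irf1 and 0.36 to 0.65 for Irf2, lay apart. Irf1 (ENSMUSG00000018899) spans 53770014 to 53778374 on chromosome 11 and Irf2 (ENSMUSG00000031627) spans 46739732 to 46847458 on chromosome 8. The gene model Gm17334 lies opposite Irf1 with 135 shared exon bases and had 0.338 to 1.29 CPM.

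Irf4, the factor induced by T cell receptor signalling, was the most abundant member and showed no called change. It had 1045, 1103 and 1207 CPM in WT and 1161, 1289 and 1101 CPM in KO, so the groups overlapped. The log2 fold change was 0.08 with a 95% interval from -0.10 to 0.26 (edgeR adjusted p = 0.426). Irf4 (ENSMUSG00000021356) lies on chromosome 13 from 30749226 to 30766976.

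Irf8, which is closely related to Irf4 and is also expressed by B cells and dendritic cells, fell. It had 550, 442 and 461 CPM in WT and 329, 256 and 268 CPM in KO, and every KO library lay below every WT library. The level was 1.70-fold lower in KO (log2 change -0.77 with SE 0.12, adjusted p from edgeR = 0.00119). In each group replicate 1 was the highest. Irf8 (ENSMUSG00000041515, chromosome 8, 120736358 to 120756694) lies inside the long gene model Gm20388, with which it shares no exon bases and which did not pass the test (edgeR adjusted p = 0.288).

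**Figure D2:**
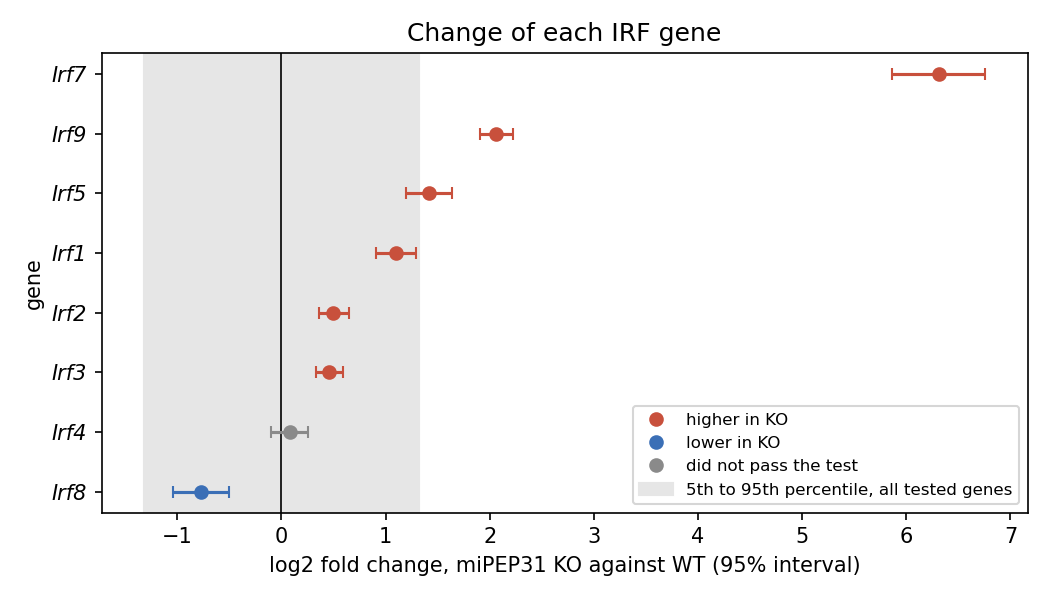
Log2 fold change of each IRF gene, miPEP31 KO against WT, with its 95% interval. The grey band holds the 5th to 95th percentile of all tested rows (-1.32 to 1.32): Irf7, Irf9 and Irf5 lie above it at 6.31, 2.06 and 1.42, and Irf8 lies within it at -0.77.

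The order of the KO libraries differed between members. Relative to the WT mean, on the log2(CPM + 0.5) scale, Irf7 stood at 6.24, 6.03 and 5.67 in KO replicates 1, 2 and 3, whereas Irf9 stood at 2.02, 1.99 and 2.12. Irf7 was highest in KO replicate 1 and Irf9 in KO replicate 3. The coefficient of variation over the KO libraries was 19.5% for Irf7 and 4.77% for Irf9, and between 2.34% and 13.7% for the other members. Among the members, Irf2 and Irf3 had the most similar patterns, with a root mean square difference of 0.055 between their centred log2(CPM + 0.5) values over the 6 libraries.

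**Figure D3:**
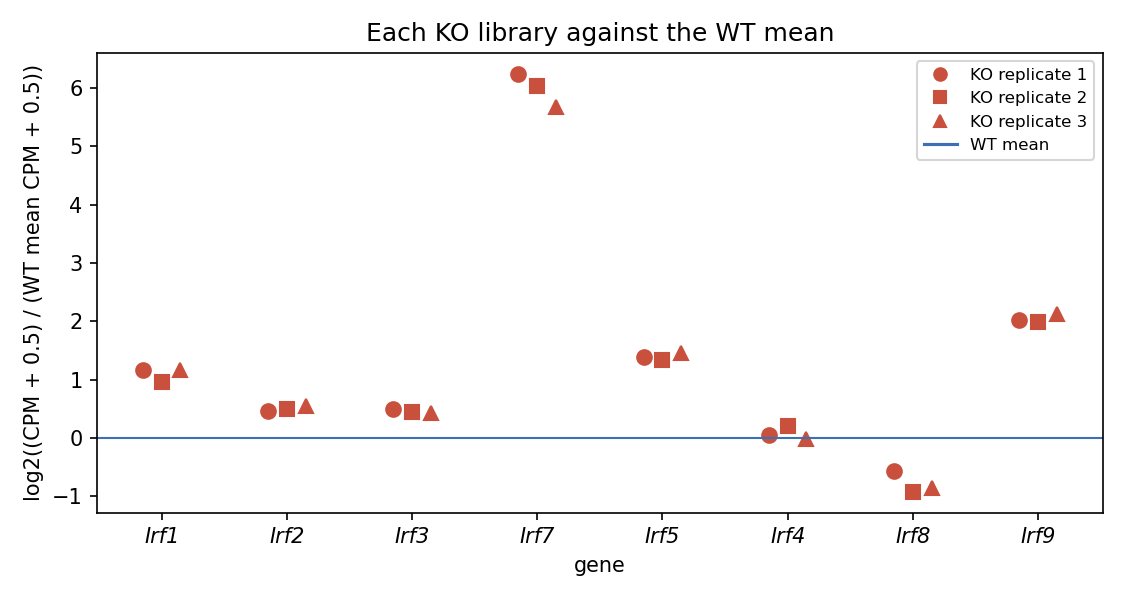
Each KO library against the WT mean, as log2 of the ratio of CPM + 0.5, for the 8 IRF genes. The points of Irf7 spread from 5.67 to 6.24 and those of Irf9 from 1.99 to 2.12, and the points of Irf4 lie on both sides of 0.

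Levels between genes were compared per kilobase of exon, using the union of annotated exons. In WT the order was Irf4 (228 ± 16.8 CPM per kb, SD, n = 3), Irf8 (68.7 ± 8.17), Irf1 (24.4 ± 1.87), Irf3 (15.3 ± 0.239), Irf2 (7.82 ± 0.356), Irf5 (5.4 ± 0.59), Irf9 (4.73 ± 0.166) and Irf7 (0.527 ± 0.0842). Only the ranges of Irf5 and Irf9 overlapped between neighbours in that order. In KO the order was Irf4 (241 ± 19.6), Irf1 (52.3 ± 4.02), Irf7 (42.0 ± 8.20), Irf8 (40.3 ± 5.52), Irf3 (21.1 ± 0.495), Irf9 (19.8 ± 0.942), Irf5 (14.5 ± 0.575) and Irf2 (11.1 ± 0.324). There the ranges of Irf1 and Irf7, of Irf7 and Irf8, and of Irf3 and Irf9 overlapped. Irf7 thus moved from the lowest place to the third on this scale. Per kb of the longest coding transcript Irf7 went from the eighth place to the fourth. Irf8 then held the second place in both groups, at 170 and 99.9 CPM per kb, with a range that overlapped that of Irf1 in KO. Its annotated exons cover 7055 bases and its longest coding transcript has 2847.

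The makeup of the family's transcripts differed accordingly. Irf4 held 61.4%, 65.3% and 66.1% of the family's summed CPM per kb in WT and 52.1%, 57.8% and 53.6% in KO. Irf8 went from 17.5% to 22.5% in WT to 7.99% to 10.3% in KO. Irf7 held 0.129% to 0.178% in WT and 7.98% to 10.9% in KO, and Irf1 went from 6.49% to 7.06% to 10.5% to 13%. Per kb of the longest coding transcript the share of Irf8 was 30.4% to 37.2% in WT and 14% to 17.3% in KO, and the mean share of Irf4 was 45.5% in WT and 38.8% in KO. For each of the 8 shares per kb of exon the groups did not overlap (two-sided exact permutation p = 0.1 each, adjusted p = 0.1 over the 8 shares), and 0.1 is the smallest p that 3 against 3 libraries allow. The family's sum was 355 ± 15.4 CPM per kb in WT and 443 ± 20.6 in KO (SD, n = 3 each, exact permutation p = 0.1), a ratio of 1.25.

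**Figure D4:**
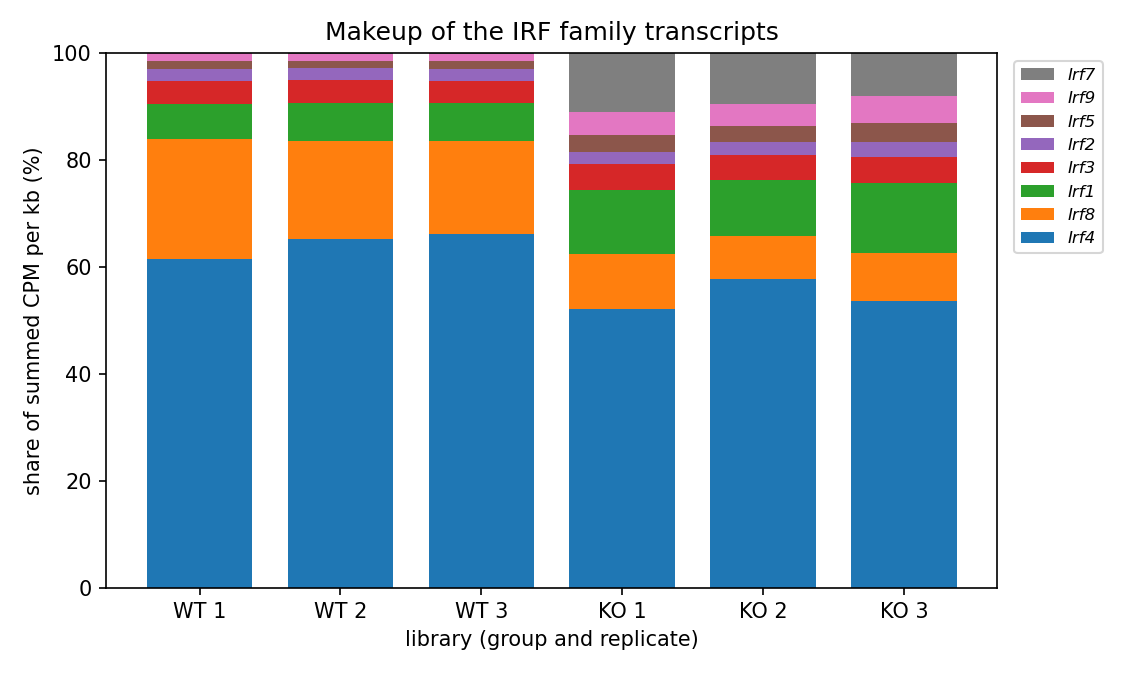
Share of each IRF gene in the family's summed CPM per kb of exon (%), in each of the 3 WT and 3 KO libraries. Irf4 takes the largest part throughout, and the part of Irf7 is 0.129% to 0.178% in WT and 7.98% to 10.9% in KO.

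Genes of other cell types were measured beside the members, because Irf5, Irf7 and Irf8 are also active in B cells, macrophages and dendritic cells. In bulk samples fewer cells of a type and less RNA per cell cannot be told apart. The summed level of 10 B cell markers was 119, 87.1 and 129 CPM in WT and 79.5, 102 and 156 CPM in KO, so the groups overlapped (exact permutation p = 1.0). Of these markers 3 were called higher (30% against 25.1% of all rows) and 1 lower (10% against 22.2%). Pax5, a B cell transcription factor gene, did not pass (log2 fold change -0.30). The 12 monocyte and macrophage markers summed to 11.4 to 13.3 CPM in WT and 40.7 to 69.1 CPM in KO (exact permutation p = 0.1). Of these, 2 were called higher and 1 lower of 6 tested (33.3% and 16.7%, against 25.1% and 22.2% of all rows). Mpeg1, which encodes perforin-2, rose from 0.929 to 1.74 CPM to 27.8 to 62.6 CPM, and Cd68 had 2.63 to 7.54 CPM over all 6 libraries and did not pass.

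The 9 conventional dendritic cell markers summed to 23.6 to 29.2 CPM in WT and 111 to 129 CPM in KO. Of 5 tested, 2 were called higher (40% against 25.1% of all rows) and 0 lower (against 22.2%). Batf3 gave 98.3 to 115 CPM of the sum in KO. Batf3 is also made by activated T cells. The 7 plasmacytoid dendritic cell markers summed to 42.2 to 45.8 CPM in WT and 57.5 to 64.1 CPM in KO. Of 5 tested, 2 were higher and 2 lower (40% each, against 25.1% and 22.2% of all rows). Siglech, the defining surface marker of that cell type, had no count in 5 libraries and 0.129 CPM in KO replicate 3, whereas Ccr9 and Tcf4 rose by log2 fold changes of 1.85 and 0.89. Lair1 and Pacsin1, named after their values were seen, fell by 1.86 and 1.71 on the log2 scale. The part of these cell types in the changes of Irf5, Irf7 and Irf8 was not tested. NK cell markers, led by Gzma and Prf1, summed to 80.5 to 124 CPM in WT and 106 to 229 CPM in KO (exact permutation p = 0.2). Gzma and Prf1 were not called, and 1 of 5 tested markers of that list was called higher (20% against 25.1% of all rows). The CD8 markers Cd8a and Cd8b1 together had 12.5 to 15.8 CPM in WT and 15.9 to 36.9 CPM in KO (exact permutation p = 0.1). Cd8a was called higher (log2 fold change 1.89, edgeR adjusted p = 0.00232) and Cd8b1 was not called. Plasma cell markers (Mzb1 and Sdc1 the most abundant) summed to 14.7 to 22.3 and 17.3 to 30.4 CPM, neutrophil markers (Ly6g and Mpo) to at most 1.44 CPM and erythroid markers (Hba-a2 and Hbb-bt) to at most 1.82 CPM in any library.

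The list of IRF partner factors held 20 genes, of which 8 were higher (40% against 25.1% of all rows), 4 lower (20% against 22.2%) and 8 stayed uncalled (median log2 change 0.25). Stat2, whose product binds IRF9, rose from 68.1 to 77.2 CPM in WT to 253 to 282 CPM in KO (log2 change 1.87, SE 0.07). The log2 changes of Stat2 and Irf9 were thus 1.87 and 2.06, with edgeR adjusted p of 3.11e-06 and 1.57e-06. Batf3, a partner of IRF4 and IRF8, rose from 18.9 ± 2.52 to 104 ± 9.04 CPM (SD, n = 3). Batf, the main partner of IRF4 in T cells, had 72.2, 102 and 102 CPM in WT and 101, 111 and 131 CPM in KO and was not called (log2 change 0.32, edgeR adjusted p = 0.105). Of the IRF2-binding corepressor genes, chosen after their values were seen, Irf2bp1 rose by 0.40 on the log2 scale, Irf2bpl fell by 0.61 and Irf2bp2 did not pass.

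Sensors and kinases that activate IRF3, IRF5 and IRF7 were mostly higher. Of 25 tested, 16 were higher (64% against 25.1% of all rows), 3 lower (12% against 22.2%) and 6 stayed uncalled (median log2 change 0.43). Zbp1, a sensor of Z-form nucleic acid, rose from 14.4 ± 1.27 to 208 ± 37.1 CPM, Ddx58, which encodes RIG-I, from 20.7 to 22.7 CPM in WT to 96.8 to 117 CPM in KO, and Ifih1, which encodes MDA5, from 12.9 ± 2.33 to 177 ± 61.6 CPM (means ± SD, n = 3 each for Zbp1 and Ifih1). These 3 sensors and Dhx58 also stand in the list of IRF3, IRF7 and ISGF3 targets. Among inhibitors and binding regulators, 6 of 15 were higher (40% against 25.1% of all rows), 4 lower (26.7% against 22.2%) and 5 stayed uncalled (median log2 change 0.15). Without WT replicate 1 these counts were 3 and 1, and without WT replicate 3 or KO replicate 2 only 2 were lower. Trim21, a ubiquitin ligase that acts on IRFs, rose by 1.86 (SE 0.14), Usp18, a brake on the interferon receptor, by 2.89 (SE 0.25) and Socs1, an inhibitor of Janus kinases, by 0.80 (SE 0.10) on the log2 scale. Usp18 also stands among the IRF3, IRF7 and ISGF3 targets and Socs1 among the IRF1-dependent genes. Batf and Bcl6 stand among both the partner factors and the IRF4-dependent genes. The counts of these lists are thus not independent of each other.

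Interferon transcripts were counted because IRF3 and IRF7 control them. Over 20 type I and type III interferon genes, the WT libraries had 2, 9 and 6 counts in all and the KO libraries 480, 239 and 76. KO replicate 1 was the highest and KO replicate 3 the lowest, as they were for Irf7. Ifnl2, a type III gene, had 0, 0 and 2 counts in WT and 141, 95 and 21 in KO, a ratio of 122 with an exact 95% counting interval of 33.5 to 1010 (edgeR log2 ratio 6.69, adjusted p = 0.00165). Leaving out KO replicate 1 made it 6.05, and 9.40 without WT replicate 3, where no WT count is left and the value depends on the prior count. Ifna2 had no count in WT and 117, 38 and 13 in KO, at least 53.3-fold higher when WT is set to 3 counts for the whole group. With no filter on low counts it was no longer called (edgeR adjusted p = 0.168). Ifnb1 had 0, 1 and 0 counts in WT and 52, 26 and 9 in KO, a ratio of 82.8 (exact 95% counting interval 14.5 to 3310), and was too low to be tested. Of the 3 interferon genes with enough counts for the test, 2, Ifnl2 and Ifna2, were called higher (66.7% against 25.1% of all rows). Both passed the low-count filter through the KO libraries alone. A lower call was therefore not possible for them, and this share is no evidence of a direction. The count of interferon genes called higher was 5 without WT replicate 1, 2 or 3 or KO replicate 3, and 6 with no low-count filter. Intervals and floors cover counting error only, and reads can be shared between these close paralogs.

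Ifng, the gene of interferon gamma, which acts upstream of IRF1, had 61.1, 105 and 62.8 CPM in WT and 168, 91.6 and 38.9 CPM in KO and was not called (log2 change 0.39, edgeR adjusted p = 0.516). The KO libraries spanned the WT range on both sides, and leaving out KO replicate 1 turned the log2 change to -0.22. Among 8 tested receptor and Janus kinase genes 3 were higher (37.5% against 25.1% of all rows), 0 lower (against 22.2%) and 5 stayed uncalled. The median log2 change was 0.14. Tyk2, the kinase at the type I receptor, rose by 0.59 (SE 0.06). Il10rb and Ifnar2, receptor chains for type III and type I interferon, rose by 0.28 (SE 0.08) and 0.23 (SE 0.07). Il10rb lost its call without WT replicate 2 or 3 or KO replicate 2 (edgeR adjusted p 0.0574 to 0.0745). Ifnar2 lost it when WT replicate 2, WT replicate 3, KO replicate 2 or KO replicate 3 was left out (adjusted p 0.0608 to 0.107) and with no filter on low counts (adjusted p = 0.0635). The count of higher genes was then 1 without WT replicate 2 or 3 or KO replicate 2.

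Genes that depend on IRFs were counted by list. All 23 genes of the IRF3, IRF7 and ISGF3 target list were higher (edgeR adjusted p under 0.05), where 25.1% of all rows were. Their median log2 fold change was 3.98, with a range from 1.29 to 9.66. The value of 9.66 is that of Ifi44, which had 4, 0 and 2 counts in WT. Ifi44 and Ifit3 (4, 7 and 4 counts in WT) passed the low-count filter through KO alone, so they could not be called lower. The chemokine gene Ccl5, also of this list, had 4.64 to 5.22 CPM in WT and 128 to 146 CPM in KO (log2 fold change 4.77, SE 0.09). Of 16 IRF1-dependent genes 14 were higher (87.5% against 25.1% of all rows), 1 lower (6.25% against 22.2%) and 1 stayed uncalled. The median log2 change was 0.98. Tapbp, the peptide-loading chaperone tapasin, rose from 116 ± 7.36 to 564 ± 57.7 CPM, Tap2, a peptide transporter subunit, from 136 ± 4.49 to 295 ± 24.8 CPM, and B2m, the light chain of MHC class I, from 1170 ± 27.3 to 2450 ± 146 CPM (SD, n = 3 each). The gene that fell, named after its value was seen, was Nos2, the inducible nitric oxide synthase, at 27.1, 12.8 and 9.19 CPM in WT and 3.80, 4.62 and 5.72 CPM in KO. It was not called without KO replicate 1 or without the low-count filter.

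Of 17 tested IRF4-dependent T cell genes, 7 were higher (41.2% against 25.1% of all rows), 3 lower (17.6% against 22.2%) and 7 stayed uncalled (median log2 change 0.36). Without KO replicate 3 the median was 0.02. Prdm1, which encodes Blimp1, had 12.13, 18.33 and 15.02 CPM in WT and 36.3, 61.9 and 96.3 CPM in KO (log2 fold change 2.10, SE 0.33). It was highest in KO replicate 3, the library with the least Irf7 among the KO. Bcl6, the antagonist of Blimp1, rose from 2.57 ± 0.627 to 7.86 ± 1.63 CPM, and the cytokine gene Il9 from 0.669 ± 0.519 to 4.64 ± 0.838 CPM (SD, n = 3 each). The log2 fold change of Il9 was 2.78, and 3.63 without WT replicate 2. Irf4 itself, as above, did not pass.

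Of 11 tested genes known as IRF5 or IRF8 targets in myeloid and B cells, 6 were higher (54.5% against 25.1% of all rows). Of the rest, 1 was lower (9.09% against 22.2%) and 4 stayed uncalled. The median log2 change was 0.72. Without KO replicate 1, 2 were lower. Il6, a cytokine gene linked to IRF5, rose from 0.359 ± 0.102 to 20.4 ± 4.95 CPM. The NADPH oxidase genes split: Cybb, the catalytic subunit, rose by 1.81 (SE 0.18), and Ncf1, a cytosolic subunit, fell by 1.70 (SE 0.10) on the log2 scale. Il12b, the IL-12 p40 gene, had no count in any library.

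**Figure D5:**
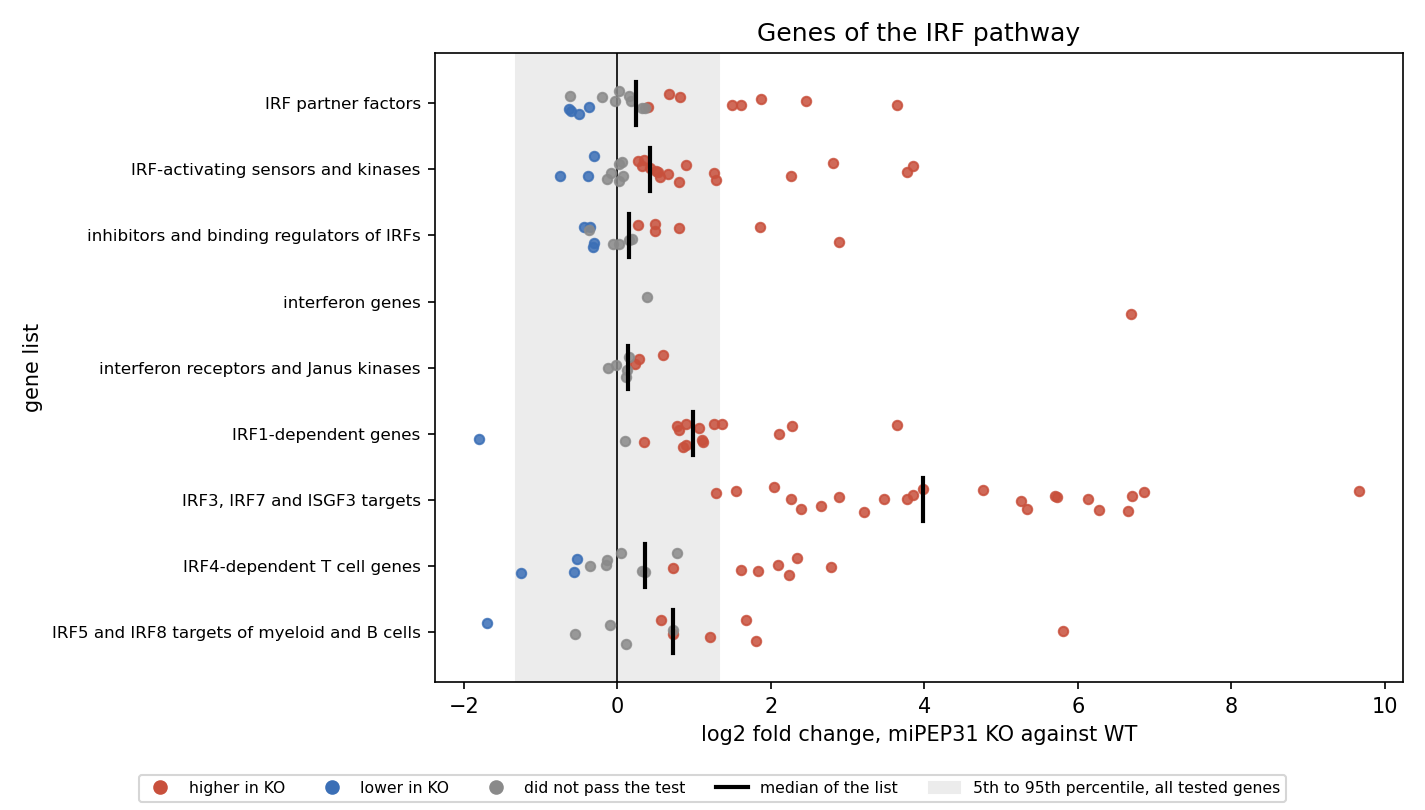
Log2 fold changes of the tested genes with counts in both groups, by list, with the list median as a black bar where over 3 genes were tested and the 5th to 95th percentile of all tested rows in grey. The IRF3, IRF7 and ISGF3 targets reach from 1.29 to 9.66 with a median of 3.98, while the IRF4-dependent genes lie on both sides of 0. The value of 9.66 is that of Ifi44, with 4, 0 and 2 counts in WT. Ifna2, without a WT count, is not drawn.

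The genes whose pattern over the 6 libraries was most like each member's were taken from 10898 named protein-coding genes with a mean of at least 1 CPM, by the root mean square difference of centred log2(CPM + 0.5). For Irf7 they were Isg15, a ubiquitin-like interferon-induced protein, at 0.159 and Oasl2 at 0.196. Isg15 had 3.25, 4.65 and 5.01 CPM in WT and 442, 319 and 243 CPM in KO. For Irf9 they were the transcription factor gene Klf8 at 0.048 and Lacc1 at 0.080, of which Klf8 had 2.26 to 2.64 CPM in WT and 10.7 to 12.2 CPM in KO. For Irf1 they were B2m at 0.061 and the endoplasmic reticulum gene Creld2 at 0.079.

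For Irf5 the nearest patterns were those of Marcks at 0.078 and Cpox at 0.084, and for Irf8 those of the zinc transporter gene Slc39a10 at 0.073 and Zhx2 at 0.076. Slc39a10 had 125, 106 and 110 CPM in WT and 70.6, 63.9 and 59.9 CPM in KO. Irf2 was nearest to Tmem199 at 0.015 and Zdhhc7 at 0.022, Irf3 to Vti1b at 0.010 and the apoptosis gene Bak1 at 0.014, and Irf4 to Trp53bp2 at 0.027 and Sfswap at 0.031.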

How the data were processed

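RNA-seq of 3 WT and 3 miPEP31 KO libraries was used as the estimated counts per gene that the authors deposited, of which 10.7% of values were not whole. Bowtie 0.12.2 and mm8 stand in the submitters' processing notes, with no role. For the counting program, its annotation and its use of strand, the sources used here give nothing. A second, small deposited table holds none of the IRF genes and was not used. Symbols, positions and exon lengths came from GENCODE M21 (GRCm38) by gene ID, with no conversion of coordinates.

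Counts were rounded, filtered with filterByExpr (minimum count 10), scaled with TMM and compared with the edgeR 4.0.16 quasi-likelihood test (robust, no covariate) in R 4.3.3. A gene with few WT counts could pass the low-count filter through KO alone, and could then not be called lower. Batf2, Tlr9, Il15 and Il6 were among such genes in the other lists. SE is the unshrunk log2 fold change over the root of F. DESeq2 1.42.0, limma 3.58.1 (voom), other scalings and filters, a replicate block and leaving out each library were alternatives. For shares and marker sums, exact permutation tests (two-sided) were run. The test was tried on simulated data in which far fewer rows changed than were called here. That trial therefore does not check the test under so broad a change.

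Named genes were all members, up to 3 of each pathway list by smallest p, the 2 most abundant markers of each other cell type, Stat2, Batf, Ifnb1, Ifng, overlapping genes and the 2 nearest patterns of each member. Some genes that this rule takes are not reported here. The members and lists were chosen with earlier results of these data known, so their directions are not independent evidence.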

Additional observations from a re-analysis of the deposited data

How the results depend on the processing

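Each of the 8 members kept its direction and its side of the threshold in all 14 alternatives of the gene-wise test. The log2 fold changes then ranged from 6.17 to 6.44 for Irf7, 2.01 to 2.11 for Irf9, 1.33 to 1.48 for Irf5, 1.04 to 1.16 for Irf1, 0.47 to 0.55 for Irf2, 0.43 to 0.51 for Irf3, 0.01 to 0.14 for Irf4 and -0.89 to -0.67 for Irf8. Irf7 in WT rested on the fewest counts of the 8 members, 39 to 55 a library. Without the low-count filter 6 interferon genes were called higher in place of 2 and 0 IRF1-dependent genes lower in place of 1. With at least 1 CPM required in 3 libraries, which leaves fewer genes to test, 0 interferon genes were called. Leaving out 1 library gave 2 to 5 higher interferon genes, 1 to 3 higher and 0 to 1 lower receptor and kinase genes, 3 to 7 higher and 1 to 5 lower inhibitors, 0 to 1 lower IRF1-dependent genes and 1 to 2 lower IRF5 and IRF8 targets. The B cell marker sum, KO minus WT, was 0.76 CPM and ranged from -20.9 (without KO replicate 3) to 17.3, and was -11.6 without WT replicate 2. The plasma cell sum ranged from -0.243 to 6.33 CPM. Sdc1, at a log2 fold change of 0.00, was -0.02 with DESeq2, RLE scaling and no filter, -0.01 with limma-voom and the CPM filter, -0.04 with upper-quartile scaling, 0.00 with the replicate block, and from -0.11 (without KO replicate 1) to 0.05 with 1 library left out, -0.06 of these without WT replicate 2. With 1 library left out Ifng ranged from -0.22 (without KO replicate 1) to 0.75, Trp53bp2 from -0.01 (KO replicate 2) to 0.12 and Mzb1 from -0.15 (KO replicate 3) to 0.49. For these the cause was not tested.

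Same-numbered libraries deviated from their group means with correlations of 0.001, -0.007 and -0.016, and not every library correlated best with its own number. All correlations between WT and KO libraries lay between -0.022 and 0.028, too weak to tell whether the numbers mark pairs. With the replicate block 5736 rows were called against 6806, Batf passed (edgeR adjusted p = 0.0305) and Ifnar2 did not (adjusted p = 0.0665).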
